A study of Mus musculus with 2 samples.

Results

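The genes described here encode the proteins of the cytosolic ribosome. They were taken by symbol, as Rpl or Rps followed by digits and at most 1 of the letters a, l or x, together with Rpsa, Rplp0, Rplp1 and Rplp2, and rows named as pseudogenes with -ps were left out. The rule found 83 genes of the 55487 listed, 32 for the small subunit and 51 for the large subunit, and no symbol had more than 1 identifier. In the annotation 80 of them are protein coding, and Rps4l, Rpl6l and Rpl32l are pseudogenes. RNA was sequenced from FACS-sorted islet beta cells, which secrete insulin, of mice 2 months old. Both libraries belong to 1 group with the genotype label MytF/F; Myt2F/F; Myt3F/F; RipCre, that is, floxed alleles of the Myt zinc-finger transcription factor genes (Myt1, Myt1l and St18 in the files) and a Cre recombinase driven by the rat insulin promoter, which acts in insulin-expressing cells. The sexes were pooled, library 2 is named a duplicate without a word on whether other mice were used, and p-values therefore measure only differences between these libraries, which may be technical. Controls were not analysed here, so no value compares mutant with control cells.

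A ribosome contains a single copy of nearly all of its proteins. The exception is the acidic stalk of the large subunit, in which Rplp1 and Rplp2 sit on Rplp0 and help to recruit translation factors. In mammals each protein is made mainly from 1 gene with introns, and the genome also carries many intronless copies of these genes, most of which are processed pseudogenes. The messenger RNAs of ribosomal proteins begin with a run of pyrimidines, the 5′ terminal oligopyrimidine tract, through which mTOR and the RNA-binding protein Larp1 control their translation. Beta cells use much of their ribosome capacity to make preproinsulin at the endoplasmic reticulum.

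Library 1 held 50121771 counted reads and library 2 held 39003197. Ins1 and Ins2 together took 16.1% and 16.4% of them, and all 10 beta-cell markers were detected. The 3 targeted genes had reads in each library, Myt1 at 77.6 and 65.4 CPM (a gene's reads relative to the total of its library), Myt1l at 44.5 and 39.0 CPM, and St18 at 72.7 and 56.5 CPM. Counts over whole genes do not separate deleted from remaining exons, so these values do not check the deletion. The summed level of 8 acinar markers came to 91.4 CPM in library 1 against 413 CPM in library 2, and all 7 of them that had enough reads to be tested were at least 2-fold higher in library 2. Alpha-cell markers summed to 895 and 684 CPM, delta-cell markers to 1526 and 1109 CPM, and the ductal, endothelial, mesenchymal, immune and erythroid lists each summed to less than 25 CPM in both libraries. The PP-cell hormone gene Ppy had 632 and 879 CPM, and no marker of another cell type had 0 reads in both libraries.

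Windows around the annotated start sites of these genes held a long run of pyrimidines more often than those of all genes. RefSeq promoters on GRCm38.p6 were matched to 61 members by symbol. In the window from 15 bases before to 15 bases after the start, 27 members (44.3%) held an unbroken run of 8 or more C or T. The share over all 27025 symbols was 13.9%, and the median longest run was 7 bases in members against 5. A run could lie wholly before the start, as in Rpl4 and Rpl31, so it need not be the tract that begins the mRNA. Rpl32l, annotated as a pseudogene, was among the 27. The windows with the 5 longest runs follow, with those of Rpl13a and Rps10, which had low read levels, and of Rplp0, a highly expressed member with a short run. They were chosen after the values were seen. Each is written 5′ to 3′ on the strand of the gene, and capitals mark the longest run of C and T.
Rpl7a, chr2:26910792-26910821 (+): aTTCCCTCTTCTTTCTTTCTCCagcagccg
Rpl27a, chr7:109519180-109519209 (+): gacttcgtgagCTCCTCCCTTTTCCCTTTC
Rpl34, chr3:130730323-130730352 (−): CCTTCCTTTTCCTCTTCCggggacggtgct
Rpl35, chr2:39005117-39005146 (−): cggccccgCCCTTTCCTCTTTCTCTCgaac
Rpl15, chr14:18270972-18271001 (−): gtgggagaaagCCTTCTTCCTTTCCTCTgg
Rpl13a, chr7:45128731-45128760 (−): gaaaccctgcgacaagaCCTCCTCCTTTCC
Rps10, chr17:27635230-27635259 (−): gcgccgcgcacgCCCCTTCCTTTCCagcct
Rplp0, chr5:115559452-115559481 (+): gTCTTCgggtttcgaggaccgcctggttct
The run was longest in Rpl7a, at 21 bases, and reached 13 bases in both Rpl13a and Rps10. It was 5 bases long in Rplp0. Over the whole promoter, from 250 bases before to 50 after the start and on both strands, the ETS core CCGGAAGT was found in 12 members (19.7%) against 4.31% of all symbols. CTCTTTCC, which can lie inside a C and T run, was found in 10 members (16.4%) against 3.57%. The YY1 core AAGATGGC occurred in 5 members (8.2%) against 3.19%, and TATAAA in 7 (11.5%) against 15.7%. A match of letters is a description of the window and not a binding site.

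Ribosomal protein transcripts made up nearly 1% of the counted reads, a far smaller share than the insulin genes. The members took 492979 reads in library 1 and 384590 in library 2. Their share in library 1 was 0.984%, with an exact 95% binomial (Clopper-Pearson) interval from 0.981% to 0.986%. In library 2 it was 0.986%, with an interval from 0.983% to 0.989%. The intervals overlapped. They cover only counting error, since no molecular identifiers were used to tell copies of a molecule apart. On the deposited length-scaled level, TPM, the members summed to 16611 in library 1 and 16444 in library 2, which was 1.66% and 1.64% of the total.

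Of the 83 members, 78 reached 1 CPM in each library and are called detected, all 32 of the small subunit and 46 of the large subunit. The 5 others were Rpl3l, Rpl6l, Rpl10l, Rpl32l and Rpl39l, whose symbols all end in l. The median level of the members was 150.6 TPM in library 1 and 147.4 TPM in library 2, while the median over all 20681 genes with 10 or more reads summed was 5.73 and 5.51 TPM. Most members were therefore abundant transcripts: 53 stood at a mean of 100 TPM or more, 23 between 10 and 100 TPM and 7 under 10 TPM. Among the 500 genes of highest mean TPM there were 39 members.

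**Figure D1:**
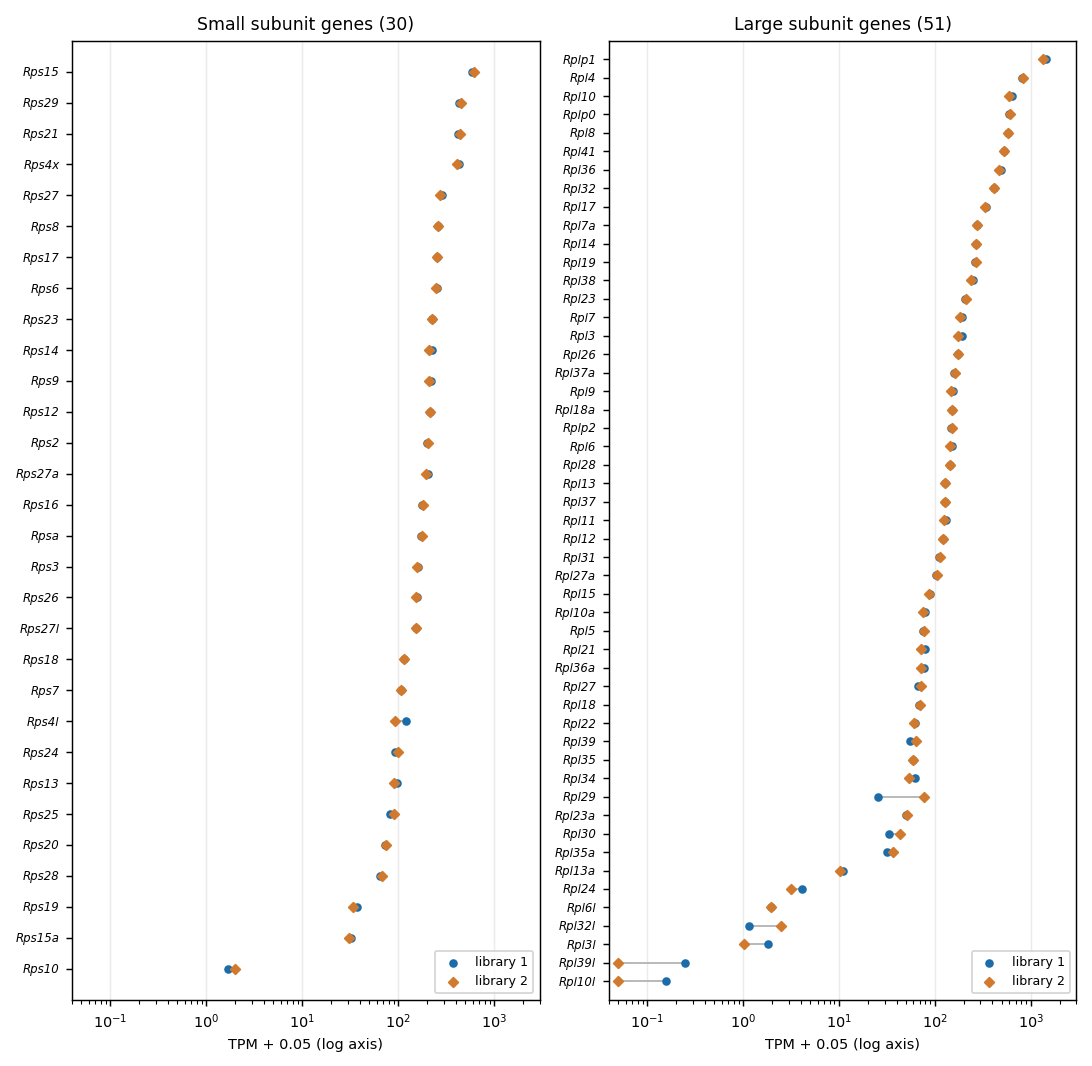
Level of 81 of the 83 ribosomal protein genes in library 1 (circles) and library 2 (diamonds), in TPM with 0.05 added so that zeros can be drawn on a log axis, ordered by mean within each subunit. Of the 83 genes, 53 lie at 100 TPM or more, and Rps10 is the single small subunit gene below 30 TPM.

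Although the proteins are incorporated in nearly equal number, their transcripts were not equal in level. Among the detected members the upper quartile was 254.6 TPM and the lower quartile 76.7 TPM, a ratio of 3.32. The highest mean exceeded the lowest 779-fold, between Rplp1 and Rps10, and 44.5-fold without Rps10, Rpl24 and Rpl13a, whose counts are uncertain (an alternative chosen after seeing the data). The order of levels was close in both libraries: across the 78 detected members, which share the libraries and the gene models, Pearson's r of log2(TPM + 1) was 0.99 and Spearman's rho was 0.993. Of the 82 pairs of neighbours in the order, 31 had ranges that did not overlap between the libraries and 51 had ranges that did.

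The stalk protein gene Rplp1 had the highest TPM of all members. It stood at 1458 TPM in library 1 and 1352 TPM in library 2 (mean 1405 ± 75.2, SD, n = 2) and was the 32nd highest gene of the tables. Rplp0, which encodes the base of the stalk, had 594 and 606 TPM (600.4 ± 8.52), and Rplp2, the partner of Rplp1 in the stalk, had 148 and 150 TPM (148.9 ± 1.19). In TPM the stalk genes differed by more than the spread of the libraries, with Rplp1 highest and Rplp2 lowest in both. The gene of Rplp1 (chromosome 9, 61913284 to 61914542, minus strand) has 3 merged exons of 499 bases in all (GRCm38, GENCODE M21). The order turned with the scaling: in CPM, without length scaling, Rplp1 had 264 and 248, below Rplp0 (358 and 369) and Rpl4 (595 and 618). In CPM per kilobase of the main transcript Rplp1 had 529 and 496, below Rpl10 (602 and 556).

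Other large subunit genes followed. Rpl4, which encodes a protein of the core that lines the peptide exit tunnel, had 817 and 838 TPM (828 ± 14.5, SD, n = 2). Rpl10, which joins the subunit late in its maturation, had 645 and 589 TPM (617 ± 39.5), and 92.1% of its words, that is, of all stretches of 50 bases in its main transcript, are also found in transcripts of other genes. Rpl8 had 587 and 576 TPM (581 ± 7.22), and its sequence was mostly its own, with 7.86% of words elsewhere. Rpl41, which encodes the smallest ribosomal protein, had 529 and 526 TPM (527 ± 2.06). The ranges of Rpl10 and Rplp0 overlapped between the libraries, so their order is not resolved.

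Small subunit genes were led by Rps15, a protein at the decoding side of the subunit head, with 588 and 624 TPM (606 ± 25.9, SD, n = 2). Rps4x, the X-linked gene of protein S4, had 435 and 410 TPM (423 ± 18.1). Rps6, the substrate of S6 kinase, had 256 and 251 TPM (254 ± 3.51). The lowest small subunit genes after Rps10 were Rps15a, with 32.4 and 30.7 TPM (31.6 ± 1.22), and Rps19, with 37.3 and 34.2 TPM (35.7 ± 2.17). Rps19 is the gene most often mutated in Diamond-Blackfan anaemia in humans. Leaving Rps10 aside, all 31 other small subunit genes stood at 30 TPM or more.

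Rpsa, Rps27a, Rpl11 and Rpl5 are among the members also known for functions outside the ribosome. Rpsa, also known as the laminin receptor, had 175 and 180 TPM (177 ± 3.57, SD, n = 2). Rps27a, which is made as a fusion with ubiquitin, had 205 and 197 TPM (201 ± 5.84). Rpl11 and Rpl5, which together with 5S RNA bind Mdm2 when ribosome assembly fails, had 130 and 125 TPM (128 ± 3.14) and 75.4 and 77.8 TPM (76.6 ± 1.73). Rpl11 was higher than Rpl5 in both libraries, but 93.8% of the words of Rpl5 are found elsewhere and 26.7% of its exon bases lie within exons of other genes, chiefly Fam69a. Both are brought into the ribosome as 1 complex.

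The median of the detected small subunit genes was 184 TPM in library 1 and 189 TPM in library 2, and that of the large subunit genes was 137 and 136 TPM. The difference in the median of log2(TPM + 1), small minus large, was 0.45 over the means of the libraries. No test was made, since members are not replicates. Its direction turned to −2.52 when it was restricted to the detected genes with under 20% of their words elsewhere, of which 6 were small and 3 large subunit genes. Without length scaling it was 0.18. Levels by subunit therefore depended on which genes were kept and on the length scaling.

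At the low end stood detected members that encode regular ribosomal proteins, and each of them had exons that lie within those of other annotated genes. Rps10 (chromosome 17, 27630418 to 27636669, minus strand) had 69 and 65 reads, or 1.64 and 1.96 TPM (1.80 ± 0.228, SD, n = 2), and ranked 13634 among all genes. Rpl24 (chromosome 16, 55966275 to 55971435, plus strand) had 77 and 46 reads, or 4.11 and 3.12 TPM (3.61 ± 0.701). Rpl13a (chromosome 7, 45125558 to 45128761, minus strand) had 423 and 313 reads, or 11.0 and 10.3 TPM (10.7 ± 0.468). All 3 were low in both libraries and far below the lower quartile of the detected members.

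The exon overlaps of these genes were measured on the merged exons of all their transcripts in the GENCODE M21 annotation. For Rps10, 28.7% of the exon bases lay within exons of other genes, of which RPS10-NUDT3, a gene model that reads through into the next gene, covered 20.6% and the antisense gene Gm15420 8.18%. For Rpl24, 47.0% of the exon bases lay within Gm28037, and for Rpl13a, 35.4% overlapped, with 29.4% within Gm45713. On the main transcript alone the shared part was larger. RPS10-NUDT3 held 50.8% of the words of Rps10, Gm28037 69.4% of those of Rpl24, and Gm45713 57.4% of those of Rpl13a. RPS10-NUDT3, Gm28037 and Gm45713 each had 0 reads in both libraries. How the counting treated reads that overlap several genes is not given in the sources used here, and its part in the low counts was not tested. The counts of these genes are therefore uncertain.

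Overlap with other genes was found in many members. In 46 members no exon base overlapped another gene, and in 11 the overlap was more than 20%. Those 11 had a median of 59.4 TPM, and the other 67 detected members had a median of 161 TPM. The overlap did not go with a low count in each case, since 3 of the 11 stood at 100 TPM or more, among them Rpl32, with 413 and 410 TPM, and Rpl31, with 111 and 113 TPM. Rpl35, with the largest overlap (66.2%, with Wdr38), had 58.9 and 59.9 TPM, and Rpl23a (62.3%, mostly with Tlcd1) had 50.2 and 51.8 TPM. Across the 78 detected members, Spearman's rho of mean TPM with the overlap was −0.27. The points share both libraries and the length scaling, and the value is a description.

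Sequence shared with other loci was more common than exon overlap. The median share of words also found in a transcript of another gene was 53.7%, and 18 members had more than 80% while 12 had less than 20%. It was highest for Rps27 (98.7%), Rpl35 (95.1%) and Rpl5 (93.8%), and it was 0 for 3 members, among them Rpl3l and Rpl39l. In all, 1085 annotated pseudogenes shared at least 1 word with a member, a median of 8 per member and 120 for Rpl7a. Of these pseudogenes 301 had 0 reads in both libraries, and together they had 10363 and 6680 reads, or 2.1% and 1.74% of the reads of the members. Spearman's rho of level with the share of words elsewhere was −0.08 across the 78 detected members.

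**Figure D2:**
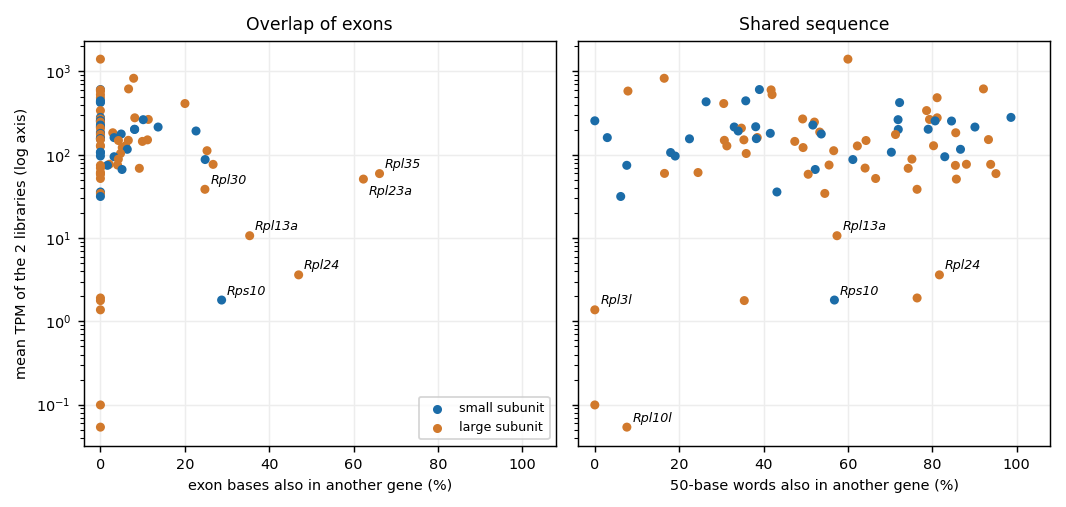
Mean TPM of the 2 libraries on a log axis for each of the 83 genes against the percentage of its exon bases within exons of other genes (left) and the percentage of its 50-base words found in other genes (right), with small and large subunit genes in different colours. Rps10, Rpl24 and Rpl13a lie low on the left panel at overlaps of 28.7% to 47.0%, and on the right panel Rpl3l and Rpl10l lie low at 0% and 7.60% of shared words (Spearman's rho over the 78 detected genes −0.08).

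Length scaling also bore on the order. For all 81 members with reads in both libraries, the deposited TPM followed the length of the merged exons within 1%. The median merged length was 1734 bases, against 775 bases for the main transcript. Spearman's rho of mean TPM with merged length was −0.46, and that of mean CPM with merged length was 0.17. Per length of the main transcript the ratio of quartiles was 2.26 in place of 3.32. Small nucleolar RNAs lay within the bounds of 29 members, on the same strand, and numbered 56. These 29 genes had a median of 150.9 TPM, and the 49 detected genes without such RNAs had 155.3 TPM.

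Of the members whose symbols end in l, most were far below the gene they are named after. Rps27l was the nearest of them to its partner: it had 155 and 156 TPM, while Rps27 had 288 and 274 TPM, a ratio of Rps27 to Rps27l of 1.86 in library 1 and 1.76 in library 2. Rps27l is a p53 target. Its coding sequence has the same length as that of Rps27 (252 bases) and differs at 60 of them, while the coding sequence of the near copy Rps27rt does not differ from Rps27 at any base. Rps27rt had 16 and 13 reads, and short reads within that sequence cannot be told apart between the copies. The first 60 coding bases show how far Rps27 and Rps27l differ. Capitals mark the 18 bases of this stretch at which Rps27l differs.
Rps27: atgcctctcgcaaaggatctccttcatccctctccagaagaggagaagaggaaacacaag
Rps27l: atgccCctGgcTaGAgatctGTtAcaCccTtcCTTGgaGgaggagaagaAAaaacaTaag

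Rps4l, an intronless copy on chromosome 6 (148354656 to 148355598, plus strand) annotated as a transcribed processed pseudogene, was the other copy counted at a high level. It had 120 and 92.2 TPM (106 ± 19.8, SD, n = 2), and Rps4x exceeded it 3.62-fold in library 1 and 4.44-fold in library 2. Only 18.0% of the words of Rps4l were found in other genes. The other members of this kind did not reach 1 CPM in both libraries. Rpl3l, known as the form of Rpl3 in heart and skeletal muscle, had 1.77 and 0.977 TPM from 53 and 23 reads, and Rpl3, with 192 and 175 TPM, exceeded it 109-fold and 179-fold. Rpl6l had 1.89 and 1.92 TPM, and Rpl6, with 151 and 145 TPM, exceeded it 79.9-fold and 75.4-fold. Rpl32l had 8 and 14 reads (1.10 and 2.45 TPM), and Rpl32 exceeded it 375-fold and 167-fold.

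Rpl10l and Rpl39l, which are known from the testis, were at or under the 3-read limit of a count of 0 (0.0599 CPM in library 1 and 0.0769 CPM in library 2). Rpl10l had 2 reads in library 1 and 0 in library 2, and Rpl39l had 3 and 0, so no fold against Rpl10 or Rpl39 is given. Their X-linked partners were expressed, with Rpl39 at 55.4 and 64.0 TPM. The first 60 coding bases of Rpl39 and Rpl39l are shown because these genes, with 85% identity over their coding bases, were far apart in reads. This stretch is more alike than the coding sequence as a whole. Capitals mark the 4 differences in this stretch, of 23 in all 153 coding bases.
Rpl39: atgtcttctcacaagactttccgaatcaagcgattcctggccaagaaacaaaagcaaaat
Rpl39l: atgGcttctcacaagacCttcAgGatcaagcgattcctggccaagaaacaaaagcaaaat
None of the words of Rpl39l occurred in another gene, so the sequence of its main transcript can be counted apart at that length.

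Library 2 was then compared with library 1, gene by gene, by testing the counts of each gene against the library totals (exact binomial test, two-sided, with Benjamini-Hochberg adjustment over 20681 genes). This compares the reads of these libraries, not conditions. Ribosomal protein genes differed little between the libraries. The log2 ratio of library 2 over library 1 had a median of 0.01 for the 81 members tested, and −0.04 for all genes tested. Where the mean was at least 10 CPM, the median size of the log2 ratio was 0.05 for the 75 members and 0.11 for all 9286 genes, and 58 members (77.3%) lay within 0.1 of 0, against 44.7% of all genes. The groups share their libraries but were not matched for level, and counting error widens the ratios of genes with fewer reads. No test of this difference was made.

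With the limits of an adjusted p under 0.05 and a 2-fold difference, 1 member was called, against 4.31% of all genes tested (1.91% higher in library 2 and 2.4% higher in library 1). That member, Rpl29 of the large subunit, had 529 reads in library 1 and 1257 in library 2. It stood at 10.6 CPM and 32.2 CPM, or 25.8 and 77.9 TPM, and was higher in library 2 by a log2 ratio of 1.61 (3.05-fold, exact binomial test with Benjamini-Hochberg adjustment, adjusted p = 5.90e-112). No exon base of Rpl29 (chromosome 9, 106429454 to 106431568, plus strand) overlaps another gene. Of its words 66.6% are found elsewhere: 49.2% in transcripts of Uimc1 and 43.0% in the processed pseudogene Gm8210. Uimc1 had 32.9 and 32.4 CPM, and Gm8210 had 89 and 41 reads and was lower in library 2 (adjusted p = 0.0213, same exact test). The pseudogenes sharing a word with Rpl29 numbered 81, and their part in the difference was not tested.

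By the adjusted p alone, 13 members were higher in library 2 (13.4% of all genes tested were) and 12 were higher in library 1 (19% of all genes tested were). Scaled by edgeR's TMM factors or by DESeq2's size factors these counts became 30 and 7. All of the 25 were among the 75 members at 10 CPM or more, while 50.7% of all genes at that level were called in either direction. The members called in each direction under all 4 scalings tried numbered 13 and 7. Both subunits were found on both sides, with 6 small and 7 large subunit genes higher in library 2 and 6 of each higher in library 1. Most of these differences were small, since 20 of the 25 had a log2 ratio within 0.2 of 0.

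After Rpl29, the members with the highest ratios towards library 2 at a mean of at least 10 CPM were Rpl30, Rpl35a, Rpl39 and Rps25. Rpl30, a large subunit protein that regulates its own splicing in yeast, had 36.3 and 48.6 CPM (log2 ratio 0.42, adjusted p = 1.69e-17, exact binomial test). Rpl35a, another Diamond-Blackfan anaemia gene, had 40.6 and 47.8 CPM (0.24, adjusted p = 2.39e-06, same exact test). Rpl39 had 28.8 and 33.7 CPM (0.22, adjusted p = 0.000306, exact test) and Rps25 had 81.3 and 90.8 CPM (0.16, adjusted p = 1.46e-05, exact test). All 4 kept the call and the direction under the 4 scalings.

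In the other direction Rps4l stood first, with 41.2 CPM in library 1 and 31.9 CPM in library 2 (log2 ratio −0.37, adjusted p = 1.42e-11, exact binomial test). Rpl34 followed, with 59.6 and 52.8 CPM (−0.17, adjusted p = 0.000158, exact test), then Rpl21, with 97.5 and 89.2 CPM (−0.13, adjusted p = 0.000355, exact test). Rpl3, which lies near the peptidyl transferase centre, had 222 and 204 CPM (−0.12, adjusted p = 9.31e-08, exact test), and Rpl10 had 481 and 444 CPM (−0.11, adjusted p = 4.04e-14, exact test). These 5 also kept the call and the direction under all 4 scalings. The acinar markers, which summed to 91.4 and 413 CPM, moved between the same libraries, and their part in these differences was not tested.

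**Figure D3:**
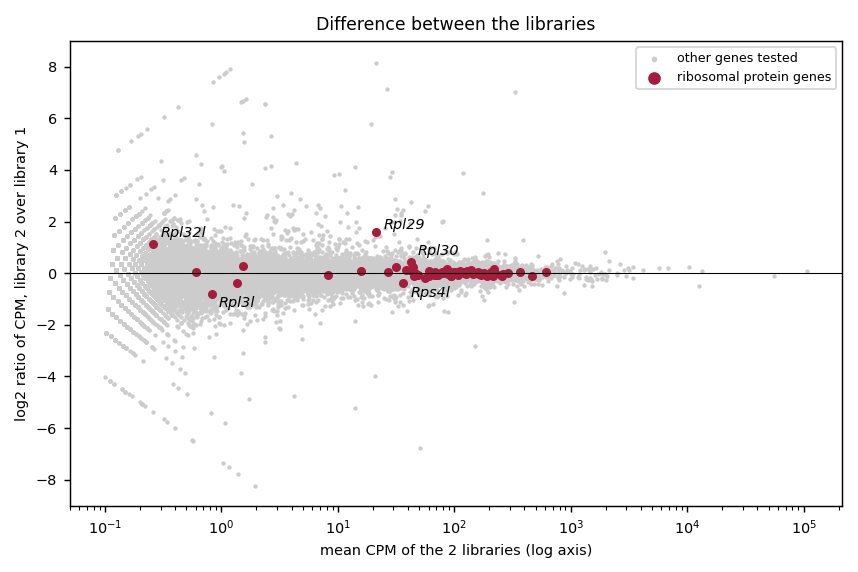
Log2 ratio of CPM, library 2 over library 1, against the mean CPM of both libraries on a log axis, for the 81 ribosomal protein genes tested (red) and all other genes tested (grey), with 0.5 read added to each count. Rpl29 stands apart at 1.61, while 58 of the 75 ribosomal protein genes at 10 CPM or more lie within 0.1 of 0.

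Of 8 genes of ribosomal proteins or their near copies that the symbol rule does not match, 7 were detected. Rps3a1, which encodes the small subunit protein S3A, had 379 and 313 TPM (346 ± 47.0, SD, n = 2) and was lower in library 2 (log2 ratio −0.26, adjusted p = 1.81e-19, exact binomial test). Fau, made as a fusion of a ubiquitin-like protein with S30, had 285 and 270 TPM, and Rack1, the scaffold protein on the small subunit, had 152 and 146 TPM. Rpl22l1 had 38.6 and 38.9 TPM, so that Rpl22 exceeded it 1.60-fold and 1.56-fold. Rpl7l1 had 30.5 and 31.8 TPM, with Rpl7 6.23-fold and 5.79-fold higher, and Rpl36al had 11.0 and 13.5 TPM, with Rpl36a 7.03-fold and 5.30-fold higher. Rpl36al was higher in library 2 (log2 ratio 0.31, adjusted p = 0.0409, same exact test).

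Genes that act with the ribosome were detected almost without exception, and in TPM the medians of their lists were lower than that of the ribosomal proteins. In CPM, without length scaling, the elongation and termination factors were close to them, with a median of 97.3 against 101. Of the 39 initiation factor genes all were detected, with a median of 56.3 TPM, from Eif3j1 (5.72 and 8.39 TPM) to Eif1 (424 and 376 TPM), which guards the choice of start codon. All 18 elongation and termination factors were detected at a median of 46.8 TPM. Eef1a1, which delivers aminoacyl-tRNA, had 2321 and 2140 TPM, more than any member, and its relative of muscle and neurons, Eef1a2, had 5.93 and 1.91 TPM. Mitochondrial ribosomal proteins, which serve the separate ribosome of that organelle, were detected in 77 of 78 cases with a median of 17.8 TPM, from Mrpl23 (1.83 and 1.76 TPM) to Mrps12 (81.7 and 101 TPM). The medians of these lists were below that of the cytosolic ribosomal proteins (148.9 TPM) and above that of all genes tested (5.64 TPM).

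The lists of genes that build ribosomes or regulate their production also had medians below that of the ribosomal proteins. All 51 ribosome assembly genes were detected and had a median of 14.5 TPM, from Wdr12 (4.47 and 4.70 TPM) to Rrp1 (105 and 105 TPM). Of 14 genes listed for RNA polymerase I, which transcribes ribosomal RNA, 12 were found and detected, with a median of 12.5 TPM, from Polr1e (4.13 and 5.45 TPM) to the upstream binding factor Ubtf (63.6 and 54.1 TPM). Of 24 regulators of ribosomal protein genes and mRNAs, 22 were detected, with a median of 27.2 TPM. Their highest member was Cnbp, which binds the pyrimidine tract region (202 and 195 TPM), and their lowest detected member was Mlst8, a subunit of the mTOR complexes (8.50 and 9.54 TPM).

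The lists were also counted between the libraries. By adjusted p alone (exact binomial test, Benjamini-Hochberg), 27 of the 51 assembly genes were higher in library 2 and 1 was higher in library 1. Their median log2 ratio was 0.17, while 13.4% and 19% of all genes tested were called in these directions. The assembly genes had a median of 26.7 CPM, and calls were more frequent among genes with more reads. Of the 9286 genes at 10 CPM or more, 2034 were higher in library 2 and 2673 in library 1. Of the 77 mitochondrial ribosomal proteins tested, 12 were higher in library 2 and 1 in library 1 (median 0.08). Of the initiation factors, 15 were higher in library 2 and 9 in library 1 (median 0.06), and of the elongation and termination factors 7 and 3 (median 0.02), with Eef1a2 lower in library 2 by more than 2-fold. RNA polymerase I genes (4 and 1) and regulators (7 and 4) had medians of −0.00. The cytosolic ribosomal proteins had a median of 0.01, and the difference between these lists was not tested. Between the same libraries the acinar markers summed to 91.4 and 413 CPM, the alpha-cell markers to 895 and 684 CPM and the delta-cell markers to 1526 and 1109 CPM, and their part in these counts was not tested.

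**Figure D4:**
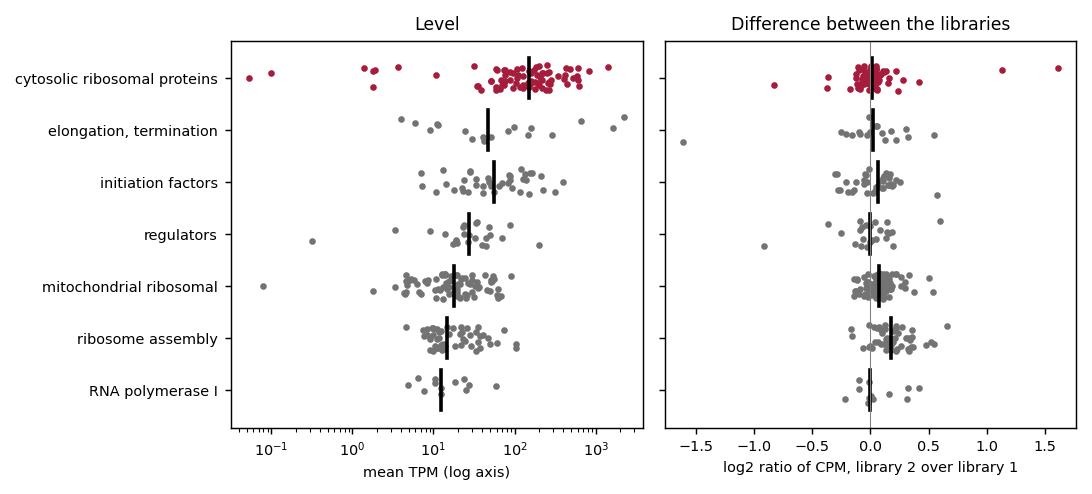
Mean TPM on a log axis (left) and log2 ratio of CPM, library 2 over library 1 (right), for the genes of the cytosolic ribosome (red) and of 6 related lists (grey), 1 point per gene, with the median of each list as a black bar. The cytosolic ribosomal proteins have the highest median level (148.9 TPM), and the assembly genes have the highest median ratio (0.17). Genes with 0 reads are not drawn on the left, and genes under 10 reads are not drawn on the right.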

How the data were processed

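The members and the gene lists were chosen with earlier results of these data known. The deposited tables give, per the file headers, a raw read count, a TPM value and a CPM value for each gene. Per the submitters' processing notes, the tools were STAR 2.7.8a, cutadapt 2.10 and featureCounts 2.0.2, on GRCm38.p6. The sources used here do not give the settings for strand or for reads matching several places or genes. The kit named in the labels' protocols does not mark strand. Named genes were the 6 highest and 6 lowest members by TPM, the 5 with the largest ratio to each side at 10 CPM or more, the l-suffixed members with their partners, 11 members with roles of their own, the 3 with most and fewest shared words, and the extremes of each list. Some genes that this rule names are not reported here. Levels between genes are the deposited TPM, and shares and ratios use the deposited count. With 1 group, edgeR's quasi-likelihood test was not fitted. Counts of both libraries were compared with an exact binomial test (scipy 1.17.1, 10 or more reads summed, 0.5 read added in ratios). The test was also run on simulated counts with set fold changes and counting error only. That run cannot show how the test behaves when libraries vary beyond counting error. Scaling alternatives used edgeR 4.0.16 and DESeq2 1.42.0. Positions, exons and transcripts came from GENCODE M21.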

Additional observations from a re-analysis of the deposited data

How the results depend on the processing

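No paired analysis was possible because both libraries form 1 group. The share of reads became 1.20% when mitochondrial genes, Ins1 and Ins2 were left out of the total. The median level of the members became 101 in CPM without length scaling and 85.5 TPM with the 12 members under 20% of words elsewhere. Those 12 include Rpl3l, Rpl10l and Rpl39l, which were not detected. The median was 154 TPM without the l-suffixed and pseudogene members (chosen after seeing the data). The ratio of quartiles, 3.32, was 3.23 to 3.26 in single libraries, 2.39 in CPM, 3.42 under 20% of words elsewhere, 3.34 without the l-suffixed members, and, in alternatives chosen after seeing the data, 2.26 per main transcript length and 3.74 per 100 words found in no other gene. The small minus large difference, 0.45, was 0.18 in CPM and 0.51 without the l-suffixed members (chosen after seeing the data), and it reversed to −2.52 under 20% of words elsewhere, where fewer genes are left. With TMM or DESeq2 factors 30 members were higher in library 2 and 7 in library 1, in place of 13 and 12; these scalings moved the median of all genes from −0.04 to 0.00. In CPM the medians of the lists were 64.5 for initiation factors, 97.3 for elongation and termination factors, 26.7 for assembly, 20.8 for RNA polymerase I, 85.2 for regulators, 33.9 for unmatched ribosomal proteins and 15.2 for mitochondrial ribosomal proteins. Where the cause is not stated, the cause was not tested. Detection gave 76 members at 5 CPM and 80 at 1 TPM. The single 2-fold call, Rpl29, was made under all scalings and read filters tried. Leaving out Rpl29, the median log2 ratio was 0.01 (an alternative added after seeing the data).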
